A study of Mus musculus with 4 samples.

Results

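Chromatin accessibility was examined at 8 of the 22350 protein-coding genes of the mouse annotation, the keratin genes that are commonly used to tell the layers of mammary epithelium apart. They were chosen by name, with Krt7, Krt8, Krt18 and Krt19 as the luminal keratins and Krt5, Krt14, Krt15 and Krt17 as the basal keratins. A region of a peak list was assigned to a gene where it overlapped the gene body or the 20 kb on either side, called the window of the gene here, and it was placed at a start site where it came within 1000 bp of a transcription start site (TSS) of the gene. By this rule the windows held 10 of the 19648 regions in vehicle-treated cells, 15 of the 38532 regions in TGFβ-treated cells and 15 of the 26732 regions of a separate 10 min experiment.

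The regions come from ATAC-seq, in which a transposase cuts wherever nucleosomes leave the DNA exposed, in NMuMG cells, an established epithelial line from normal murine mammary gland grown with 10% serum and insulin. A pair of samples stayed in this complete medium and received vehicle or TGFβ1 at 5 ng/ml for 2 h. The other pair spent 6 h without serum or insulin before vehicle or TGFβ1 at 5 ng/ml was added for 10 min. The labels disagree on the time of the TGFβ sample in that pair, and the time in its title was used. Both 10 min samples are labelled with the same peak list, so that list stands for the experiment, and vehicle and TGFβ could not be compared at 10 min. That list carries the name of the TGFβ treatment and may come from the TGFβ library alone or from both, so a 10 min count here cannot be assigned to either. Each condition of the 2 h experiment has 1 peak list and no read counts, so no spread between samples could be computed, no test was run, and the intervals given below cover counting error only. The study's methods describe a reproducibility filter between replicates, while the labels and the study's list of libraries name a single library for each of these conditions, so what the filter compared here was not settled. By that same list the vehicle library of the 2 h pair held more filtered reads than the TGFβ library. A place that is absent from a list had no peak that passed the filter. In a bulk sample, a site open in fewer cells and a site less open in each cell cannot be told apart.

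Keratins are the intermediate filament proteins of epithelial cells, and each filament pairs a type I keratin with a type II keratin. Krt8 (type II) and Krt18 (type I), joined by Krt7 and Krt19, are the keratins of the luminal cells that line ducts and alveoli, while Krt5 and Krt14 are the usual pair of the basal cells, where Krt15 and Krt17 are also found. Type I genes cluster on chromosome 11 and type II genes on chromosome 15, except that Krt18 sits next to Krt8 at the edge of the type II cluster. TGFβ drives an epithelial-to-mesenchymal transition in NMuMG cells, a change of state in which keratin filaments are partly replaced by vimentin.

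A region lay at a start site of Krt8, Krt18 and Krt19 in all 3 lists. No list had a region at a start site of Krt7, Krt5, Krt14, Krt15 or Krt17. Thus 3 of the 4 luminal genes and 0 of the 4 basal genes had a start-site region, and the same genes made up the 3 of 8 in each list. Among all protein-coding genes a start-site region was present for 41.0% with vehicle, 47.6% with TGFβ and 46.3% in the 10 min list, so a count of 3 of 8 lies near what is usual for a coding gene. Counting any region in the window, the vehicle list reached 4 of the 8 genes (Krt8, Krt18, Krt19 and Krt15) against 63.1% of all coding genes. The TGFβ list reached 6, adding Krt14 and Krt17, against 73.6%. The 10 min list reached 5, without Krt17, against 68.8%. Krt7 and Krt5 were the 2 genes with no region in the window in any list, which was the case for 24.4% of coding genes. The plot of regions by gene shows that the counts differ more between genes than between lists.

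**Figure D1:**
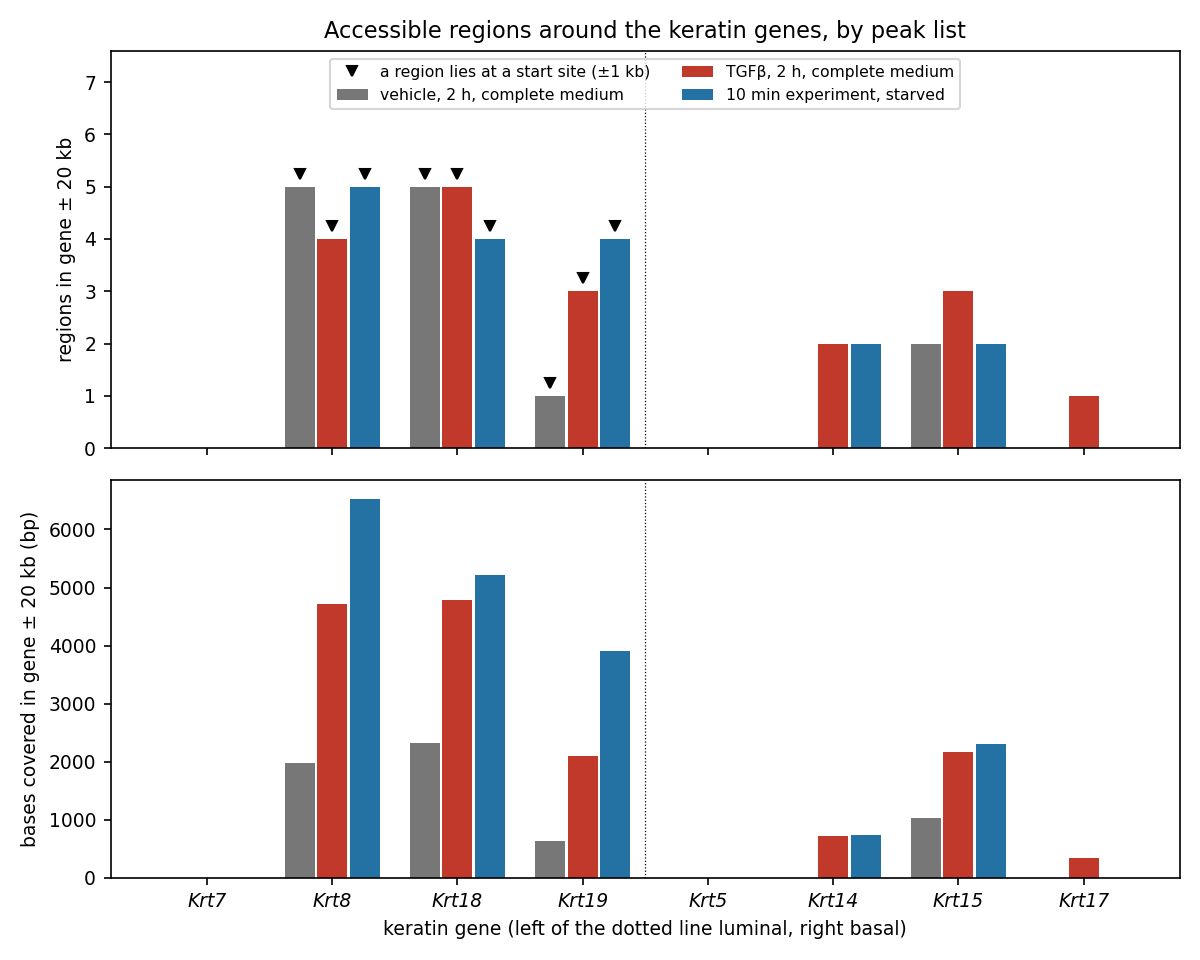
Number of accessible regions (upper panel) and the bases they span, gaps inside joined regions included (lower panel, bp), in the gene body and 20 kb on either side of each keratin gene, with 1 bar per peak list and a triangle where a region lies within 1000 bp of a start site. Krt8 and Krt18 have 4 or 5 regions in every list, Krt19 has 1 region in the vehicle list and 3 and 4 in the others, and Krt7 and Krt5 have no bar.

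Krt8 and Krt18, a keratin pair of simple epithelia, lie 23.9 kb apart on chromosome 15, and part of their windows overlaps. Krt8 (ENSMUSG00000049382.9, chr15:101827142-101834773, minus strand, mm9) had 5 regions with vehicle, 4 with TGFβ and 5 in the 10 min list. Krt18 (ENSMUSG00000023043.6, chr15:101858647-101862457, plus strand) had 5, 5 and 4. As many regions or more were found for 2.75% of coding genes in the vehicle list, where both keratins had 5. In the TGFβ list, the longest of the 3, the corresponding shares were 20.9% for Krt8 and 11.7% for Krt18. The number of joined regions therefore hardly differed between vehicle and TGFβ, but joining lowered the TGFβ count here and left the vehicle count as it was. Over all keratin windows the TGFβ list had 21 intervals in 15 regions, and the vehicle list had 10 in 10. The span of the regions in the window of Krt8 was 1979 bp with vehicle, 4709 bp with TGFβ and 6519 bp in the 10 min list. For Krt18 it was 2330 bp, 4780 bp and 5221 bp. These spans include gaps between peak intervals that were joined into a region. Counting the bases under the intervals alone, Krt8 had 1979, 2984 and 4058 bp and Krt18 had 2330, 3465 and 3465 bp, so the ratio of TGFβ to vehicle was 1.51 in place of 2.38 for Krt8 and 1.49 in place of 2.05 for Krt18.

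The start-site region of Krt8 was found at chr15:101834463-101835056 in the vehicle list, from −283 to 310 bp relative to the start site, with a width of 594 bp. In the TGFβ list it was 1442 bp wide and reached upstream to −1262 bp. In the 10 min list it was 1663 bp wide and reached downstream to 1391 bp instead. The wider regions are made of separate peak intervals that were joined because less than 1000 bp lay between them. The TGFβ list held an interval over the start site (−429 to 179 bp) and a second one from −1262 to −990 bp, 273 bp wide, which overlapped no interval of the vehicle or the 10 min list. A further TGFβ region stood alone from −2981 to −2630 bp, and the 10 min list had a region at the same place, from −3037 to −2620 bp. Thus upstream of Krt8 the TGFβ list had 2 intervals within 3 kb that the vehicle list lacked, of which the 10 min list shared the more distant one.

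The region at the start site of Krt18 was nearly alike in all 3 lists. It ran from −190 to 306 bp with vehicle, from −145 to 317 bp with TGFβ and from −212 to 265 bp in the 10 min list, with widths of 497, 463 and 478 bp. Its score, a scaled reproducibility value that ends at a cap of 1000, was at the cap in the vehicle and the TGFβ list and was 868 in the 10 min list. The score serves here to describe peaks within a list. A further region lay upstream of Krt18 in every list, from −2681 to −2293 bp in the vehicle list, and in the TGFβ list a narrow interval from −2219 to −2034 bp (score 551, near the lowest score of 540) was joined to it. In the TGFβ list alone a region followed downstream of the gene, from 6512 to 6832 bp past the start site.

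**Figure D2:**
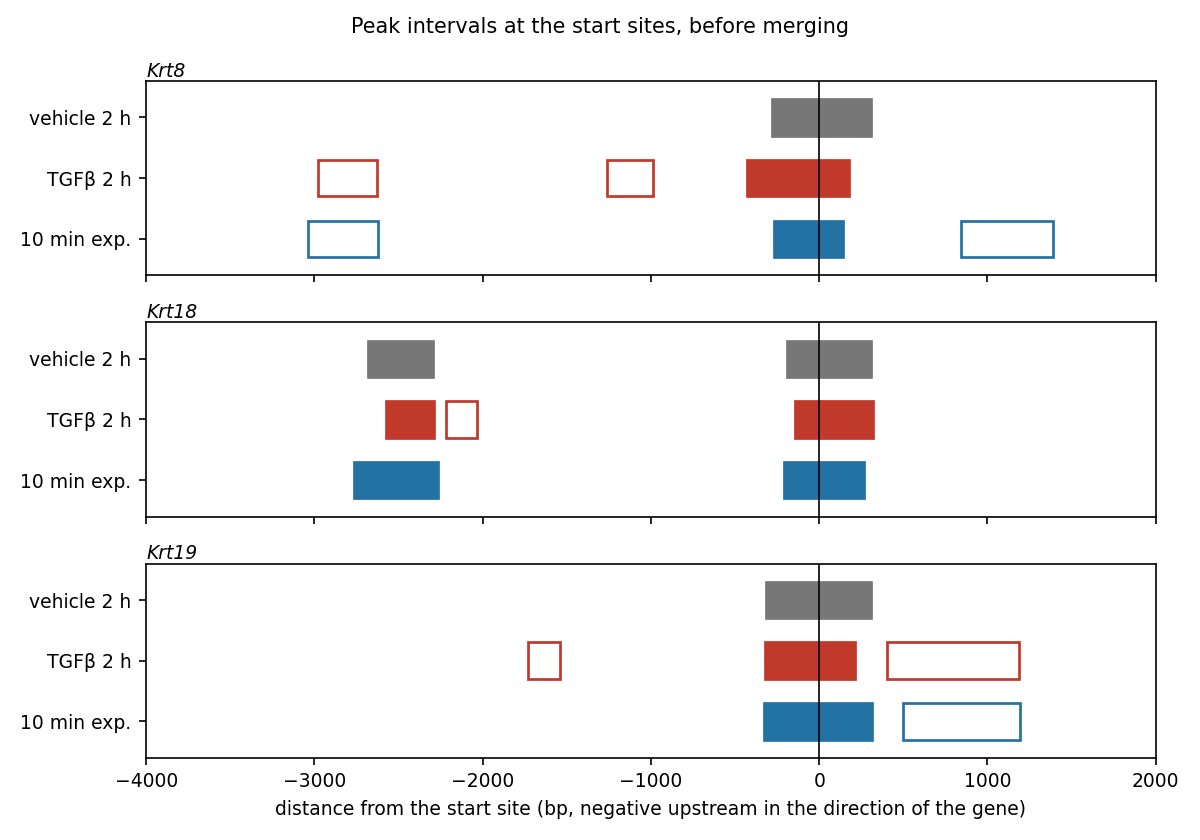
Peak intervals of at least 150 bp before merging around the start sites of Krt8, Krt18 and Krt19, against the distance from the start site (bp, negative upstream), with intervals that overlap a vehicle interval filled and the others open. An interval covers each start site in every list, and the open boxes mark intervals outside the vehicle ones, such as those from −1262 to −990 bp at Krt8 and from 400 to 1187 bp at Krt19 in the TGFβ list.

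The 200 bases just upstream of the 3 start sites with a region in every list are given first, since regions of all lists overlap them. They are read 5′ to 3′ on the strand of each gene from the mm9 genome. Capitals mark matches to the SP letters GGGCGG, and no match to TATAAA or to the AP-1 letters TGACTCA was found in them. The positions are chr15:101834774-101834973 (minus strand) for Krt8, chr15:101858447-101858646 (plus strand) for Krt18 and chr11:100007435-100007634 (minus strand) for Krt19.
Krt8 promoter: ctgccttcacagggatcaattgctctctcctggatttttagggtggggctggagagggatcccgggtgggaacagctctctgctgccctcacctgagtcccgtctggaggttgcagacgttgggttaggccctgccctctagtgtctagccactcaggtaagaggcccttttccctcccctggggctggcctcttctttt
Krt18 promoter: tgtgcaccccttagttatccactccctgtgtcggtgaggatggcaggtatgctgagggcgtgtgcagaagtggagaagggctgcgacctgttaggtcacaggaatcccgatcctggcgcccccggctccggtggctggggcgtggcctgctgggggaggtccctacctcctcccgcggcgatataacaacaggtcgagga
Krt19 promoter: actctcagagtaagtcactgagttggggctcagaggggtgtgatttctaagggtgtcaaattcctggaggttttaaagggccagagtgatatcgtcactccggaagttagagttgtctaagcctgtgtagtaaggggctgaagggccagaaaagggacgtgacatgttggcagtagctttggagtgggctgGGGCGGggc

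Only Krt19 has a GGGCGG match in this stretch among these 3, and 38.6% of all coding genes have at least 1 in the same 200 bases. Krt14 is the other member with one. The letters TATAAA, found in 10.0% of coding-gene promoters, occurred in Krt15 at −29 bp and in Krt17 at −31 bp, 2 genes without a start-site region. TGACTCA, bound by AP-1 dimers of JUN and FOS proteins, occurred in 0 of the 8 promoters and in 3.04% of all. CAGACA, which contains a short SMAD-binding sequence, occurred in Krt14 and Krt15 against 12.3% of all promoters. The TEAD letters GGAATG occurred in Krt7, Krt14 and Krt17, 3 of 8 promoters, against 8.98% of all, and the ETS letters CCGGAAGT in Krt19 against 3.26%. A match of letters is a description of the sequence, not a bound site.

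Between Krt8 and Krt18 lay the widest region of the set in the TGFβ and the 10 min list. The vehicle list had 2 regions there, chr15:101846532-101846928 (397 bp, score 1000) and chr15:101848288-101848792 (505 bp, score 954). The TGFβ list had a single region of 2377 bp over both, made of 3 intervals with 7 summits. The 10 min list had a region of 3534 bp made of 4 intervals with 10 summits. The third TGFβ interval, from −11450 to −11214 bp relative to the Krt18 start site, lay between both vehicle regions and overlapped a 10 min interval. The interval that only the 10 min list had lay from −13274 to −13029 bp. The centre of the first vehicle region is printed below because it held a pair of TGACTCA matches in regions of all 3 lists. It is read on the plus strand at chr15:101846631-101846830, with the matches on either strand in capitals.
Krt8 to Krt18 intergenic: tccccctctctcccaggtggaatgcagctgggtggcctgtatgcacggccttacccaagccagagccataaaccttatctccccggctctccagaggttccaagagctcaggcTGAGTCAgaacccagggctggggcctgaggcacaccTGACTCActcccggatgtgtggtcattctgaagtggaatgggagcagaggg

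The same letters occurred 3 times in the upstream interval of Krt8 that only the TGFβ list held. The matches lay at −1092, −1132 and −1258 bp, inside no region of the other lists. The stretch from −1300 to −1051 bp, chr15:101835824-101836073 read on the minus strand in the direction of Krt8, is given with these matches in capitals and was chosen for printing after they had been seen.
Krt8 upstream: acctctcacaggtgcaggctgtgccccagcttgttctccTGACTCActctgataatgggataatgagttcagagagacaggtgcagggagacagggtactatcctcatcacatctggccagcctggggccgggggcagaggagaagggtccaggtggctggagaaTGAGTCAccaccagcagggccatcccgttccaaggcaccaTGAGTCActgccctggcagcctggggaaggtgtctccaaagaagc

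Farther out, the pair was flanked by places that were open in every list. Downstream of Krt8 a region of 302 bp with vehicle, 538 bp with TGFβ and 715 bp in the 10 min list lay between 26478 and 27192 bp past the start site. Downstream of Krt18 a region of 542 bp, 1080 bp and 704 bp lay from 16796 bp past the start site onward. In both cases the vehicle region was the narrowest. The vehicle list also had a region 15976 to 16156 bp past the Krt8 start site, 181 bp wide, that overlapped a region of the 10 min list and none of the TGFβ list. It was the single vehicle-only region of all 8 genes, against 6.93% of coding genes with such a region in the window. The TGFβ list had an interval of 131 bp at that place, which fell under the minimum width of 150 bp, so the difference there is one of width and not of a missing peak.

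**Figure D3:**
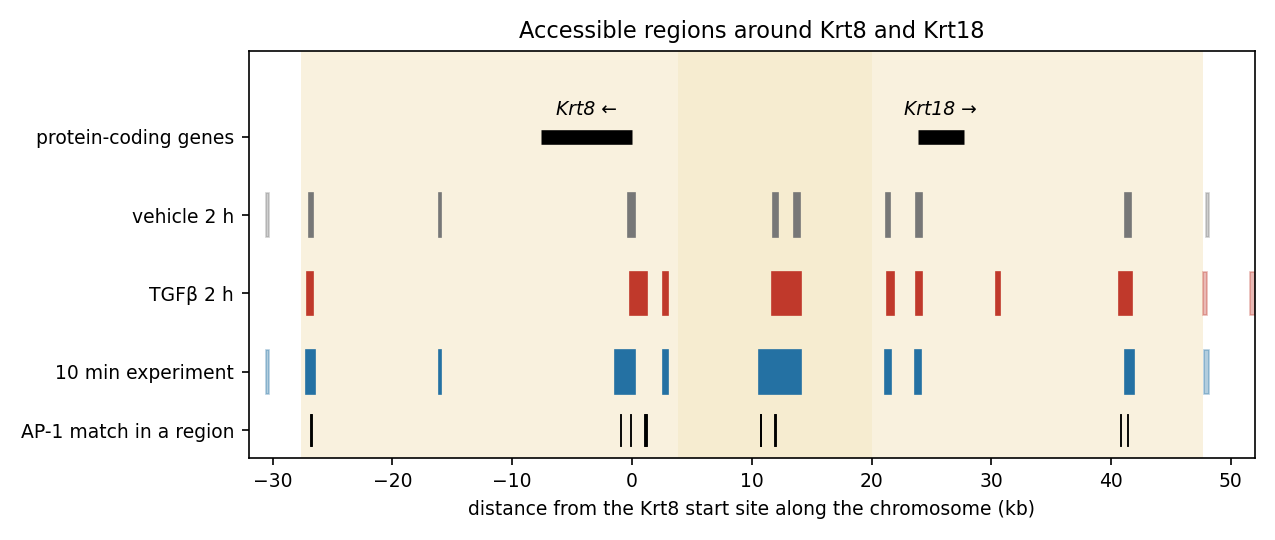
Map of the Krt8 and Krt18 locus with the distance from the Krt8 start site along the chromosome (kb), showing the genes with arrows for their direction, the regions of each list (pale boxes lie outside the shaded windows) and TGACTCA matches inside any region. The start sites and the stretch between the genes are covered in all 3 lists, and the boxes of the TGFβ and 10 min lists are wider than those of the vehicle list at most shared places.

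Krt19, the type I keratin without a tail domain that pairs with Krt7 or Krt8 in luminal cells, differed from this pair in the number of its regions. Krt19 (ENSMUSG00000020911.8, chr11:100002124-100009979, minus strand) had 1 region with vehicle, 3 with TGFβ and 4 in the 10 min list, which span 626, 2106 and 3901 bp (626, 1919 and 3140 bp under the intervals alone). At least as many regions were found for 63.1% of coding genes with vehicle, 35.4% with TGFβ and 14.4% in the 10 min experiment. The vehicle region was the one at the start site, from −317 to 308 bp, with a score of 606. In the TGFβ and 10 min lists the start-site regions, 1513 and 1524 bp wide, carried a second interval inside the gene, from 400 to 1187 bp and from 496 to 1192 bp. These downstream intervals overlapped each other and no vehicle interval.

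The other Krt19 regions lay upstream. In the TGFβ list a region of 189 bp at chr11:100008974-100009162 lay in an intron of Krt19, from −1728 to −1540 bp relative to the start of its coding transcript, and was counted at a start site only through a processed transcript that begins farther upstream. It was in no other list. A region from −13862 to −13459 bp was shared by the TGFβ and the 10 min list. The 10 min list had 2 more, from −11978 to −11357 bp, in neither other list, and from −23186 to −22025 bp, where the overlapping vehicle and TGFβ regions fell just outside the window.

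Krt7, a type II keratin of luminal cells, had no region in its window. For Krt7 (ENSMUSG00000023039.9, chr15:101241474-101260744, plus strand) the nearest region to the start site was 22605 bp away with vehicle, 22521 bp with TGFβ and 23650 bp in the 10 min list, always upstream and outside any gene. The distances differed little between lists, and 42.2% of coding genes were as far or farther from a region with vehicle, 31.4% with TGFβ and 35.6% in the 10 min list. Krt7 was thus the luminal gene without a peak in the window, like Krt5 among the basal genes.

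Krt5, the type II keratin of basal cells, was the farthest of the 8 genes from any region. For Krt5 (ENSMUSG00000061527.5, chr15:101537501-101543322, minus strand) the nearest region was 261 kb from the start site with vehicle, 59.9 kb with TGFβ and 175 kb in the 10 min list. As far or farther were 10.4%, 19.2% and 12.6% of coding genes. The 10 min region lay under Krt76, another type II keratin gene, and the other 2 were intergenic.

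Krt14, the type I partner of Krt5, had no region in the window in the vehicle list and 2 in each of the others. For Krt14 (ENSMUSG00000045545.8, chr11:100064476-100068862, minus strand) the nearest vehicle region was 38.2 kb downstream, and the nearest TGFβ and 10 min regions lay 8.60 and 8.58 kb downstream. That downstream region was 167 bp wide in the TGFβ list and 197 bp in the 10 min list, and the nearest coding start site to it was that of Krt9. The upstream region lay from −14543 to −13985 bp in the TGFβ list (score 954) and from −14764 to −14223 bp in the 10 min list. Krt14 was thus the basal gene whose TGFβ regions were all found in the 10 min list as well.

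Krt15, a type I keratin of basal cells, lies 4.86 kb from Krt19 and shares its window in part, with 1 of 2 regions in common in the vehicle list, 2 of 3 in the TGFβ list and 1 of 2 in the 10 min list. For Krt15 (ENSMUSG00000054146.7, chr11:99993072-99997263, minus strand) the nearest region was the start-site region of Krt19, at 9.86 kb in the vehicle list and 8.98 kb in the other 2. The only region of its window not shared with Krt19 lay about 22 kb past its start site, between 21830 and 22606 bp, in all 3 lists and closer to the start of Krt13. It was 407 bp wide with vehicle, 466 bp with TGFβ and 777 bp in the 10 min list.

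Krt17, a type I keratin best known from stressed and wounded epithelium, had 1 region in the TGFβ list and none in the others. For Krt17 (ENSMUSG00000035557.8, chr11:100117531-100122343, minus strand) this region lay 6351 to 6696 bp downstream of the start site, closer to the start of Krt16. The nearest vehicle region was 34.4 kb and the nearest 10 min region 21.0 kb upstream.

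**Figure D4:**
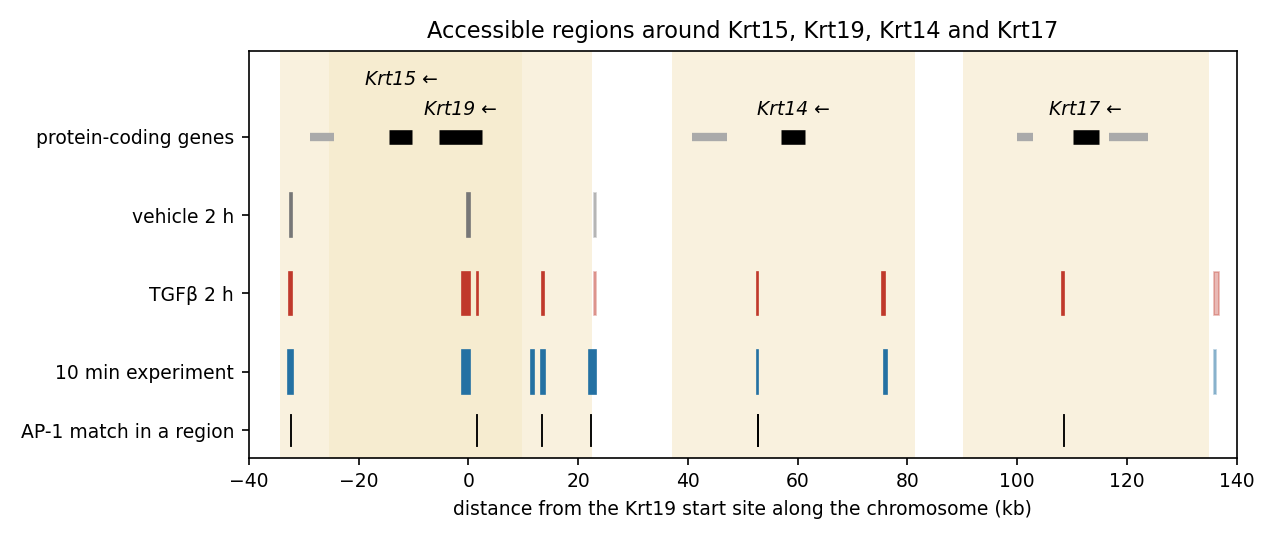
Map of the part of the type I cluster with Krt15, Krt19, Krt14 and Krt17, against the distance from the Krt19 start site along the chromosome (kb), with the regions of each list, TGACTCA matches inside them, the 20 kb windows shaded and other coding genes of the windows in grey. The vehicle list has 2 regions in the windows, at Krt19 and past Krt15, where the TGFβ list has 7 and the 10 min list has 7.

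Over the 8 genes the median distance from the start site to the nearest region was 16234 bp with vehicle, 7477.5 bp with TGFβ and 8781 bp in the 10 min list. Over all coding genes the medians were 11446, 3727 and 5378 bp. The members span both ends of this range, as the plot of distances shows, with a distance of 0 at 3 luminal genes and more than 8 kb at every other gene, except for Krt17 with TGFβ.

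**Figure D5:**
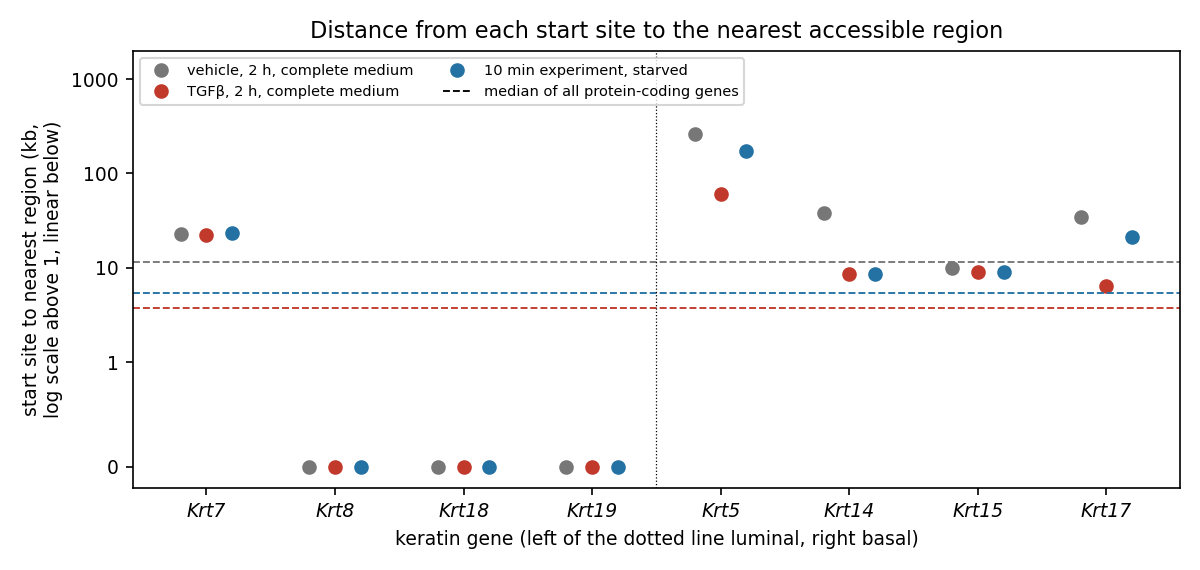
Distance from the start site of each keratin gene to the nearest region of each list (kb, log scale above 1 and linear below), with dashed lines at the median over all protein-coding genes. Krt8, Krt18 and Krt19 sit at 0 in every list, and the other genes lie between 6.35 kb (Krt17, TGFβ) and 261 kb (Krt5, vehicle).

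With overlapping windows joined, the genes took up 6 separate stretches of 326517 bp in all, and the regions in them occupied 18 places. Of these, 8 were covered in all 3 lists, 4 in the TGFβ and 10 min lists, 3 in the TGFβ list alone, 1 in the vehicle and 10 min lists and 2 in the 10 min list alone, of which 1, far upstream of Krt19, overlaps vehicle and TGFβ regions that lie outside the window. The 8 common places comprised the 3 start sites, the stretch between Krt8 and Krt18, the upstream place of Krt18 and the distal ones of Krt8, Krt18 and Krt15. Regions covered 1.36% of the joined windows with vehicle, 3.29% with TGFβ and 3.98% in the 10 min list, compared with 0.375%, 0.707% and 0.622% of the genome, which includes long stretches without genes. Without the gaps the shares of the windows were 1.36%, 2.66% and 3.17%, and those of the genome 0.357%, 0.646% and 0.595%. Most regions lay between genes, with 7 of 10, 11 of 15 and 12 of 15 touching no gene.

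The comparison of vehicle with TGFβ after 2 h asks which places had a peak in one condition and not in the other. The windows held 10 regions with vehicle and 15 with TGFβ, a ratio of 1.5 (exact 95% interval 0.630 to 3.73), compared with 1.96 for the whole lists (1.93 to 2.00). The interval for the keratin genes contains both the ratio of the whole lists and no difference. The windows of Krt8 and Krt18 had 8 regions in both lists, a count taken after intervals were joined. Those of Krt14, Krt15, Krt17 and Krt19 had 2 with vehicle and 7 with TGFβ. The bases covered in all windows were 4440 bp with vehicle and 10756 bp with TGFβ, a ratio of 2.42, and the ratio over the whole lists was 1.89. Without the gaps inside joined regions the bases were 4440 and 8694 bp, and the ratios were 1.96 and 1.81. The median width of a region was 452 bp with vehicle and 466 bp with TGFβ in the keratin windows, and 428 and 379 bp in the whole lists.

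Of the 15 TGFβ regions 7 (46.7%, Wilson 95% interval 24.8 to 69.9%) overlapped no vehicle region, compared with 52.4% of all TGFβ regions. These TGFβ-only regions lay in the windows of 6 genes, Krt8, Krt18, Krt19, Krt14, Krt15 and Krt17, where 50.2% of coding genes had at least 1. None of the 7 had a score at the cap, which allows a share of up to 35.4% by the Wilson interval, and 13.9% of all TGFβ-only regions did. Of the vehicle regions 1 of 10 (10.0%, 1.79 to 40.4%) overlapped no TGFβ region, against 6.44% of all. When the TGFβ list was shortened by score to the number of vehicle regions, 1 TGFβ-only region was left, the ratio of regions became 0.60, and Krt19 no longer had a start-site region with TGFβ. At the level of unmerged intervals, 12 of the 21 TGFβ intervals overlapped none of the 10 vehicle intervals, and 5 of the 12 lay inside regions that counted as shared after merging.

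The TGFβ-only regions are printed next, 1 for each of the 6 genes, taken as the region with the highest score in the window. Each shows the central 200 bases (189 for the intron of Krt19, which is also in the window of Krt15) on the plus strand of mm9, with TGACTCA and CAGACA matches on either strand in capitals. The positions are chr15:101837479-101837678 for Krt8, chr15:101865220-101865419 for Krt18, chr11:100020995-100021194 for Krt19, chr11:100083027-100083226 for Krt14, chr11:100008974-100009162 for Krt15 and chr11:100115720-100115919 for Krt17. No annotated exon lies under any of them.
Krt8: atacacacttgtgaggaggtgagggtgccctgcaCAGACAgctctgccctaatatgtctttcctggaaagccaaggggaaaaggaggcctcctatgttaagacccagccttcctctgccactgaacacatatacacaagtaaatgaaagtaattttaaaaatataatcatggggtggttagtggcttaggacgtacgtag
Krt18: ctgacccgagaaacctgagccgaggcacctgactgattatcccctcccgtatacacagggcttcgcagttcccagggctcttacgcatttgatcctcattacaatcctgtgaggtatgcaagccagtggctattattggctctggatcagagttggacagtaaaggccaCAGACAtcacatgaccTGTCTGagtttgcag
Krt19: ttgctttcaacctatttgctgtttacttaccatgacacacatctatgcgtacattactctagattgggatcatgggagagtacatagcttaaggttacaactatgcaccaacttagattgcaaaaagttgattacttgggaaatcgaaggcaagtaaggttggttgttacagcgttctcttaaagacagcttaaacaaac
Krt14: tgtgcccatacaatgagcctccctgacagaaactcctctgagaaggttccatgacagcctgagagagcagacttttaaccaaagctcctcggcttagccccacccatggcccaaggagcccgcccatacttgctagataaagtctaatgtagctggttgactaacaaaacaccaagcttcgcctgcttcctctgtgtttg
Krt15 and Krt19 intron: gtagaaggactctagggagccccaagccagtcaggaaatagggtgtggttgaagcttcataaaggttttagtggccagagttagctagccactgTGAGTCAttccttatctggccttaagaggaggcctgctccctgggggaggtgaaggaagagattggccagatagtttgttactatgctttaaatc
Krt17: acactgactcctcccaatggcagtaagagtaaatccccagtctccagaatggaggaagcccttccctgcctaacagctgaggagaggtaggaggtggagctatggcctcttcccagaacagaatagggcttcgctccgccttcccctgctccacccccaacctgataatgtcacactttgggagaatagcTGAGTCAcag

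The stretches differ in what they hold. Those of the Krt19 intron and of Krt17 carry a TGAGTCA, which is TGACTCA read on the other strand. Those of Krt8 and Krt18 carry 1 and 2 CAGACA matches, and those printed for Krt19 and Krt14 carry neither motif. Outside the printed bases, 1 CAGACA match lay within 200 bp of the centre of each of these 2 regions. The other TGFβ-only region of Krt14, not printed, had 2 TGACTCA matches and 1 CAGACA match within 200 bp of its centre. GC content of the printed stretches ran from 38.0% for Krt19 to 54.5% for Krt17.

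Of the 7 TGFβ-only regions 4 (57.1%, Wilson 95% interval 25 to 84.2%) overlapped a region of the 10 min list, compared with 31.5% (30.9 to 32.2%) of all TGFβ-only regions. The 4 were the region upstream of Krt8, the one upstream of Krt19 and both of Krt14. Those of Krt18, Krt17 and the Krt19 intron did not overlap a 10 min region. The interval for the keratin regions contains the share of the whole list. Of the 15 regions of the 10 min list 13 (86.7%) overlapped a TGFβ region and 10 (66.7%) a vehicle region, next to 85.9% and 64.1% of all 10 min regions. Medium and time differ together between the experiments, and the library behind the 10 min list was not settled, so their parts cannot be told apart.

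The letters TGACTCA were then looked for over the full length of the regions, a search added after values of these data had been seen. In all, 20 matches on either strand lay inside regions of the keratin windows. Of these, 7 lay in regions of all 3 lists, 8 in a TGFβ region and no vehicle region, and 0 in a vehicle region and no TGFβ region. The regions spanned 10756 bp with TGFβ and 4440 bp with vehicle, and 1 of 10 vehicle regions overlapped no TGFβ region. Little room was thus left for a match outside the TGFβ regions, and these counts were not made for the whole lists. Per kb of region there were 1.58 matches with vehicle, 1.39 with TGFβ and 1.03 in the 10 min list, where the whole lists had 0.756, 0.941 and 0.676. Within peak intervals alone the densities were 1.58, 1.73 and 1.35, where the whole lists had 0.787, 1.02 and 0.702, so the order of vehicle and TGFβ depends on whether gaps are counted. The matches shared by all lists lay at 119 bp past the Krt8 start site, at 26731 and 26813 bp past it, at −11900 and −11864 bp of Krt18, at 17571 bp past the Krt18 start site and at 22211 bp past that of Krt15. Beyond the 3 upstream of Krt8, those in the TGFβ list alone lay at 16975 bp of Krt18, at −1637 bp of Krt19 and at 6430 bp of Krt17.

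Within 200 bp of the region centres the AP-1 letters were present in 5 of 10 vehicle regions (50%), 5 of 15 TGFβ regions (33.3%) and 4 of 15 regions of the 10 min list (26.7%). The shares over the whole lists were 27.5%, 32.1% and 27.1%. Within 500 bp of the centres the 10 min share was 60.0% (9 of 15), where the whole list had 35.2%. Within 200 bp of the centres CAGACA was present in 2 of 10 (20%), 8 of 15 (53.3%) and 8 of 15 (53.3%), where the whole lists had 28.4%, 34.7% and 28.7%. The GATA letters AGATAA were present in 40.0%, 33.3% and 33.3%, where the whole lists had 15.2%, 18.0% and 16.0%. The SMAD palindrome GTCTAGAC, the GRHL letters AACNGGTT and the consensus sites of CTCF and p63 were found in none of these windows, and each is rare, at most 4.75% in any whole list. Many of the regions are the same place in several lists, so the counts are not independent of each other. Mean GC content of the same windows was 57.8%, 53.5% and 53.6%, near the 55.0%, 51.3% and 53.7% of the whole lists.

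Among the 42 other keratin genes of the annotation, few had a start-site region. The vehicle list had none, the TGFβ list had 2 (Krt80 and Krt86) and the 10 min list had 1 (Krt80). Any region in the window was found for 13, 25 and 24 of them, and 16 had none in any list. Over all coding genes 41.0%, 47.6% and 46.3% had a start-site region and 63.1%, 73.6% and 68.8% a region in the window. No region in any list was found for 24.4% of coding genes. Regions were thus less common at these keratins than is usual for a coding gene. By the summed difference of region counts over the 3 lists, Krt80, a type II keratin at the opposite edge of the chromosome 15 cluster, was the closest of the 42 to both Krt8 and Krt18, with 2, 7 and 5 regions and a difference of 6. Krt17 had the same counts as Krt16 and Krt74, and Krt14 differed by 1 from Krt31 and Krt81. Krt19 differed by 3 and Krt15 by 2 from Krt31 and Krt86, and Krt7 and Krt5 shared their counts of 0 with 16 genes, among them Krt1 and Krt12. Neighbouring keratins share regions where their windows overlap, so likeness of counts partly follows from position.

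Of the other keratins of epithelia, Krt1, Krt4, Krt6a, Krt6b, Krt10, Krt13, Krt16, Krt20, Krt23 and Krt80, a start-site region was found for Krt80 alone, in the TGFβ and 10 min lists. Genes that anchor keratin filaments to desmosomes and hemidesmosomes had more than these keratins. Of the 9 annotated, 5 had a start-site region with vehicle (Dsp, Plec, Dst, Jup and Pkp1). With TGFβ 7 had one (Plec, Ppl, Dst, Jup, Pkp1, Pkp2 and Pkp3), and in the 10 min list 5 (Plec, Ppl, Dst, Jup and Pkp2). The shares over all coding genes were 41.0%, 47.6% and 46.3%. With vehicle, Dst and Plec were called only through another annotated start. Their most upstream coding starts were 88146 and 6151 bp from the nearest vehicle region. Pkp3 was called in the same way with TGFβ, where the nearest region was 1940 bp from its most upstream coding start. For Dsp the nearest region lay 1475 bp away with TGFβ and 1177 bp away in the 10 min list, past the limit of 1000 bp. Of 9 other intermediate filament genes, Vim, Synm and Lmna had a start-site region in every list. Lmnb1 had one in the TGFβ and 10 min lists, with the nearest vehicle region 1016 bp away, and Lmnb2 had one in the 10 min list. The start site of Vim, the mesenchymal filament gene, was thus in the vehicle list too, like those of Krt8 and Krt18.

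As a check of the labelled cell type, start-site regions were counted for markers of epithelium and of other cells. Of 6 epithelial markers, Grhl2 had a start-site region in every list and Cdh1 in the 10 min list. Grhl2 was called only through another annotated start of the gene. From its most upstream coding start the nearest region was 85087 bp away with vehicle, 11428 bp with TGFβ and 39734 bp in the 10 min list. Epcam, Cldn7, Esrp1 and Ovol1 had none at the start site. A region in the window was found for 5 of the 6 markers in each list, against 63.1%, 73.6% and 68.8% of all coding genes. In the vehicle, TGFβ and 10 min lists this held for 1, 3 and 2 of 5 fibroblast and 2, 4 and 3 of 4 endothelial markers. It held for 2, 4 and 4 of 4 blood and 3, 3 and 2 of 3 adipocyte markers. Window counts thus did not set the epithelial markers apart. Of 5 fibroblast markers 1 (Col1a1) had a start-site region in every list, of 4 endothelial markers 1 (Kdr, TGFβ list), and of 4 blood and 3 adipocyte markers 0. The part of other cell types in the keratin results was not tested.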

How the data were processed

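ATAC-seq libraries of NMuMG cells were aligned to mm9 and processed by the authors with the ENCODE pipeline, with MACS2 version 2.1.2 for peak calls and, by the study's methods, a filter on the irreproducible discovery rate between replicates. The deposited files were peak lists whose score, the authors' scaled rate, ran from 540 to a cap of 1000, with no read counts. All 3 lists were used, and 0 columns belonged to other samples. Intervals were converted to 1-based coordinates, those under 150 bp were dropped and gaps under 1000 bp were joined, which widens regions where peaks are dense. Overlap meant at least 1 bp. Start sites came from any transcript of GENCODE vM1, and motifs from the mm9 sequence on both strands. Intervals of shares are Wilson and that of the ratio is exact, at 95%. Python 3.11.15, SciPy 1.17.1 and matplotlib 3.10.9 were used, and the scripts were tested on simulated lists.

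All 8 genes are named, with other keratins that had a start-site region or the most alike counts. The members and lists were chosen with earlier results of these data known. Alternatives changed the merging, width, score, window, flank, overlap, transcripts and list length.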

Additional observations from a re-analysis of the deposited data

How the results depend on the processing

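Of 101 values recomputed for 18 results, 69 stayed close to the reported value and 32 moved. Krt8, Krt18 and Krt19 remained the genes with a start-site region under every merging, width, TSS window and transcript choice. Keeping peaks at or above the median score left 1 such gene in the vehicle list (Krt18), 2 in the TGFβ list (Krt8 and Krt18) and 1 in the 10 min list (Krt8). That choice also left 5, 6 and 5 regions in the windows of the vehicle, TGFβ and 10 min lists. With no flank there were 3, 4 and 3 regions, with a flank of 5 kb 4, 9 and 6, and with 50 kb 19, 33 and 28.

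TGFβ-only regions (7 as reported) numbered 12 when only touching intervals or none were merged, 1 with the median score, 1 with no flank, 17 with a flank of 50 kb and 1 with the TGFβ list shortened to the number of vehicle regions. Vehicle-only regions (1 as reported) numbered 0 with no minimum width, with the median score, with no flank and with a flank of 5 kb, 2 with a flank of 50 kb and 4 with the shortened list. The shortened list also gave a ratio of TGFβ to vehicle regions of 0.60. The share of TGFβ-only regions found in the 10 min list became 100% with the median score and with the shortened list and 0% with no flank, where 1 region was left in each case. The share of 10 min regions with an AP-1 match, 26.7% as reported, was 60.0% within 500 bp of the centre, where the whole list had 35.2%. Leaving the gaps inside joined regions uncounted, a choice made after seeing the data, moved the TGFβ to vehicle ratio of bases from 2.38 to 1.51 for Krt8.

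No paired analysis was possible because the lists come from no test, with 1 per condition. The longer TGFβ list comes from the library with fewer filtered reads by the study's own list, and the part of depth in the counts was not tested.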

Other observations

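The 2 keratin clusters that hold the members differed in how their number of regions compared between lists. The type II cluster, chr15:101177875-101862457 (mm9, 0.685 Mb from Krt80 to Krt18, 23 keratin genes), held 10 regions with vehicle, 16 with TGFβ and 16 in the 10 min list. This is 14.6, 23.4 and 23.4 regions per Mb, compared with 7.45, 14.6 and 10.1 over the genome. The type I cluster, chr11:99094075-100131185 (1.04 Mb from Krt222 to Krt42, 27 keratin genes), held 7, 27 and 16 regions, or 6.75, 26.0 and 15.4 per Mb. Within it Krt23, a type I keratin of simple epithelia, had 2 regions in its window with vehicle, 8 with TGFβ and 2 in the 10 min list, with none at its start site. With 1 list per condition these differences have no replicate check.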
